A study of Mus musculus with 4 samples.

Results

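The Snail, Twist and Zeb transcription factors were examined in cultured mouse muscle stem cells after 1 h of BMP6. The 7 genes were taken by name from the deposited expression table, which has 55267 entries: Snai1, Snai2 and Snai3, Twist1 and Twist2, and Zeb1 and Zeb2. All 7 had an entry, and 5 of them had a mean level of at least 1 TPM and were tested. TPM is a read level scaled to library size and transcript length, so levels can be roughly compared between genes. Read depth was uneven along transcripts, which limits such comparisons. In BMP6 replicate 1 the depth of Snai1 was 41.8 in exon 1 and 163 in exon 3 on the TPM scale. Snai1 rose 2.64-fold in mean TPM and was the only one of the 7 that passed the test, whereas the intervals of the change for Snai2, Snai3, Zeb1 and Zeb2 each included 0 and lay below a doubling. Twist1 and Twist2 were under 0.2 TPM in every library.

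Snail and Zeb proteins are zinc finger repressors that bind E-box sequences, and Twist proteins are basic helix-loop-helix (bHLH) factors that bind E-boxes as dimers. All are known for repressing epithelial genes such as Cdh1 when epithelial cells become mesenchymal, and Snail and Twist proteins are also known to hold back differentiation of myogenic cells. Smad proteins carry the BMP signal from the cell surface to DNA, and Id genes are among the best known genes that respond to it.

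All cells came from female mice aged 9 weeks of the genotype C57BL/6N(Tg(Pax7-EGFP)Tajb), in which Pax7 sequences drive the green reporter used to sort muscle stem cells. Cells of several limb and trunk muscles were cultured, sorted for the reporter and cultured again. Both groups were then kept for 6 h without serum in 200 ng/mL of the soluble BMP receptor BMPR-1A-Fc, which captures BMPs, so the controls carry this agent too. The BMP6 group received 100 ng/mL BMP6 for 1 h in its vehicle, 4 mM HCl with 0.1% BSA, and the control group the vehicle alone. Each group had 2 libraries, and the labels give the biological replicate number as the batch, so that BMP6 replicate 1 pairs with control replicate 1. How many animals went into a replicate was not given in the sources used here. The cells were sorted, cultured, detached with trypsin and frozen before RNA was isolated, so they are not freshly isolated stem cells.

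Library depth was alike. Reads rebuilt from the deposited coverage ranged from 108138579 to 111966564 per library, and 13002 to 13203 entries per library reached 1 TPM. All 10 muscle stem cell markers were tested and none passed the limma test, at an adjusted p under 0.1. Of all 10645 eligible entries, those tested that had no provisional name, 0.272% passed. The summed level of the markers was 1193 to 1383 TPM after BMP6 and 1253 to 1346 TPM in the control. Pax7, which marks these cells, was at 8.29 to 11.7 TPM, and the myogenic factor Myod1 at 536 to 631 TPM. Cxcr4, a chemokine receptor gene, had the largest change of the list, at 2.98 and 3.27 TPM after BMP6 and 1.32 and 1.01 TPM in the control (change 0.94, limma adjusted p = 0.270). It was the 1 marker that passed with the replicate number as a block (limma adjusted p = 0.0143). The share of 0.272% is from the fit without the block, and the share with the block was not worked out. Muscle differentiation genes were also abundant, with Acta1, the skeletal muscle actin, at up to 11828 TPM. Myog was at 4400 to 5472 TPM and Mymk at 1722 to 1937 TPM over the 4 libraries. The study takes both genes as marks of the onset of differentiation, so the cultures held RNA of differentiating cells as well.

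Promoter sequences from RefSeq (build GRCm38.p6, which is not the GRCm39 build of the expression files) are shown because Snai1 is the member that changed and because Smad and E-box motifs are the letters relevant to a BMP response and to these factors. The table holds 300 bases for each start site, 250 before and 50 after, for Snai1, Twist1, Twist2 and, with 4 start sites, Zeb2. Of the 9 motifs searched on both strands, the windows below are those of Smad and E-box motifs found in these 7 promoters. Capitals mark the motif, and each window is read on the strand of the gene.
Snai1, chr2:167538005-167538030, plus strand: cggtccgggaGGAGCCcaagcggaat
Snai1, chr2:167538038-167538063, plus strand: ccacgcggcgGGAGCCccagcagccc
Snai1, chr2:167538059-167538084, plus strand: agcccaggcgCACCTGctccggtctc
Twist1, chr12:33957652-33957677, plus strand: gcccaactctCAGACAcctcgcgggc

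The Snai1 promoter held GGAGCC, a variant of the GC-rich element that BMP-activated Smads bind, with its first base 180 and 147 bases before the start site. It also held CACCTG, the reverse complement of the E-box CAGGTG that Snail and Zeb proteins bind, 126 bases before the start. The last bases of the second Snai1 window are the first of the third. The Twist1 promoter held CAGACA, a Smad-binding element, 9 bases before the start, and this site overlaps the only match to the shorter element GTCTG. None of these motifs is rare: GGAGCC was in 30.8% of all 32851 promoters in the table, CAGGTG in 20.2%, CAGACA in 21.0% and GTCTG in 49.6%. The Smad element GGCGCC (11.9% of promoters), the palindromic Smad site GTCTAGAC (0.213%), the E-box CACGTG (7.15%) and the NF-kB site GGACTTTCC (0.344%) were in none of the 7 promoters. TATAA, the core of the TATA box (24.9%), was in 3, that of Twist1 and overlapping ones of Zeb2 that share the same matches. It lay 126 and 47 bases before the start in Twist1. In Zeb2 it lay 218 or 244 bases before a start or within the 50 bases after it. The matches are letters in a window and were not tested as binding sites here. The study mapped Smad binding to DNA in the same cells and names Snai1 among the genes bound differently with BMP6. Whether that binding falls on these letters was not examined here.

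Snai1, a Snail repressor known for early responses to TGF-β family ligands, was at 134 TPM in BMP6 replicate 1 and 103 TPM in BMP6 replicate 2, against 43.8 and 46.3 TPM in control replicates 1 and 2. Both BMP6 libraries were above both control libraries. The means were 119 ± 22.3 TPM (BMP6) and 45.0 ± 1.75 TPM (control), each with its SD over n = 2 libraries, and the pairs gave 3.07-fold and 2.22-fold higher levels. Snai1 rose by 1.37 on the log2(TPM + 1) scale (SE 0.14, 95% interval 1.02 to 1.71, limma, Benjamini-Hochberg adjusted p = 0.0511 over 13128 entries). With the replicate number as a block the adjusted p from limma was 0.000253 and the interval was 1.13 to 1.60. Snai1 passed both thresholds, an adjusted p under 0.1 and a change of at least 2-fold, as did 24 of 10645 eligible entries (0.225%), and by size of change it was number 18 among those 24. No entry was called lower by limma without the block, and 1 entry fell at least 2-fold at an unadjusted p under 0.05. Voom on rebuilt reads without the block also called 0 lower. With the block limma called 1 entry lower and voom called 5. The adjusted p of Snai1 missed 0.1 under 3 of its 15 alternatives, reaching 0.648 without the filter on low values, and missed a threshold of 0.05.

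**Figure D1:**
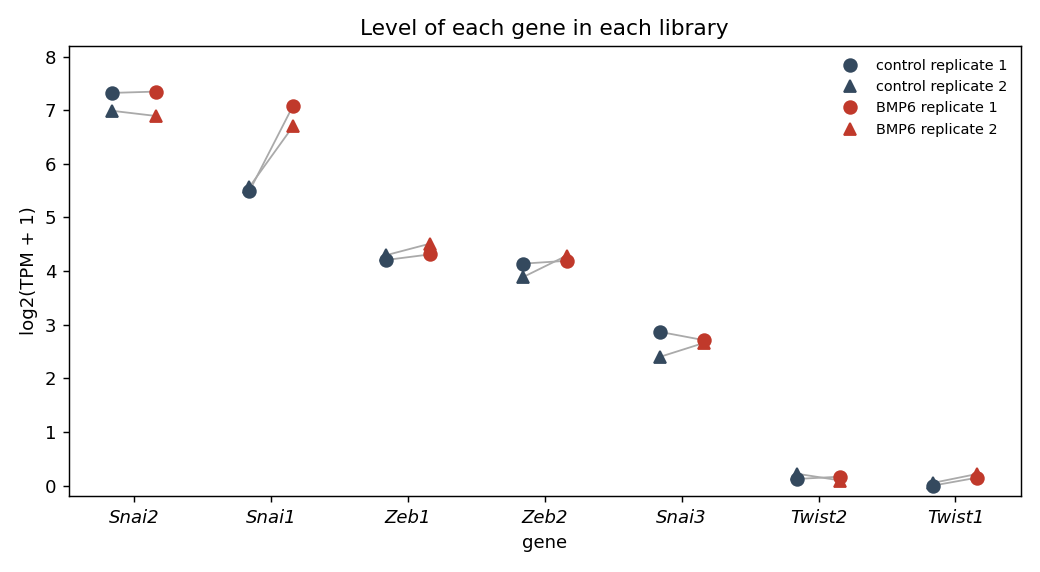
Level of the 7 genes in each library, on the vertical axis as log2(TPM + 1), with genes ordered by their mean control level; circles are replicate 1, triangles replicate 2, dark points control, red points BMP6, and grey lines join the libraries of a pair. Both Snai1 lines rise from about 45 to over 100 TPM, the lines of the other genes stay near level, and Twist1 and Twist2 lie near 0.

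Snai2, the Snail member that was highest in the control cells, was at 162 and 118 TPM after BMP6 and 159 and 126 TPM in the control. The groups overlapped, and replicate 1 was above replicate 2 in both. The change was -0.04 on the log2(TPM + 1) scale (SE 0.18, 95% interval -0.48 to 0.41, limma adjusted p = 1.00), and within the pairs it was 0.02 and -0.10. Most of the spread of Snai2 lay between the replicate numbers, at 0.46 (BMP6) and 0.33 (control) log2 units between replicate 1 and replicate 2, and with the block the interval was -0.18 to 0.11.

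Snai3, the third Snail gene, was low, at 5.56 and 5.31 TPM after BMP6 and 6.29 and 4.27 TPM in the control. Both BMP6 values lay between the control values. The pairs moved in opposite directions, by -0.15 and 0.26 log2 units, around a change of 0.05 (95% interval -0.41 to 0.52, limma adjusted p = 1.00).

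The makeup of the Snail transcripts was compared between the groups. Snai1 made up 44.5% and 45.5% of the summed Snail TPM in BMP6 replicates 1 and 2, against 20.9% and 26.2% in control replicates 1 and 2. The mean share was 21.5 percentage points higher after BMP6 (45.0% against 23.6%), and both BMP6 libraries were above both controls. An exact permutation test of 2 against 2 libraries gave a two-sided p of 0.333, the smallest this design allows. The test therefore could not decide whether the share differed. The share is made from the same TPM values as the changes above and is no separate result. The ratio of Snai1 to Snai2 was 0.830 and 0.874 after BMP6 and 0.275 and 0.367 in the control. The summed Snail level was 302 and 226 TPM after BMP6 and 209 and 177 TPM in the control. In these bulk libraries more cells with Snai1 RNA and more Snai1 RNA per cell cannot be told apart.

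Each annotated exon of Snai1 showed the rise. The entry covers chr2:167380115-167384734 (GRCm39, plus strand) and holds 1 transcript of 3 exons, and exon depth is given on the TPM scale. Exon 1, which holds the 5′ UTR and the first 82 coding bases, was at 41.8 and 33.9 after BMP6 and 13.2 and 15.2 in the control, a 2.66-fold difference of means. Exon 2, coding over all its 528 bases, was at 116 and 86.7 against 39.1 and 40.5, or 2.54-fold. Exon 3, with 182 coding bases and the 3′ UTR, was at 163 and 126 against 52.4 and 55.6, or 2.67-fold. In no exon did the groups overlap.

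The libraries carry no strand, so reads of an antisense RNA over Snai1 would be counted with it. A later annotation (GENCODE M39, GRCm39) places the long noncoding RNA Gm75792 on the opposite strand at chr2:167376897-167381285, where it shares 85 bases with exon 1 and 121 with exon 2. It shares no base with exon 3, where the fold was 2.67. The 3 exons of Snai2 had folds of 0.915, 0.964 and 0.994. The 3 exons of Snai3 had folds of 1.02, 1.03 and 1.15, in order of position on chromosome 8.

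**Figure D2:**
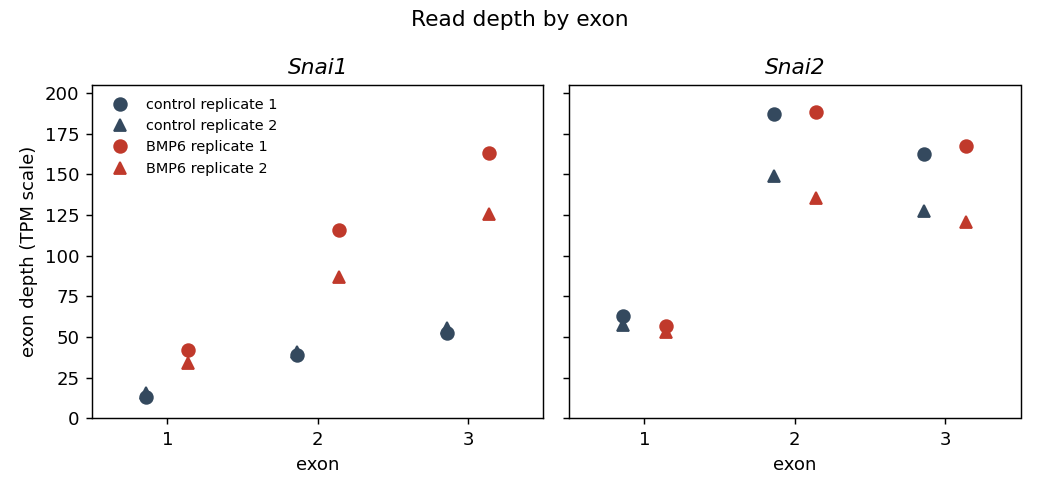
Depth of the 3 exons of Snai1 (left) and Snai2 (right) in each library, scaled as TPM on the vertical axis; circles are replicate 1, triangles replicate 2, dark points control and red points BMP6. In Snai1 the red points lie above the dark ones in all 3 exons, from 33.9 against 15.2 at the closest in exon 1, and in Snai2 replicate 1 lies above replicate 2 in every exon and group.

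Twist1 and Twist2, bHLH repressors of muscle and bone differentiation, were barely detected. Twist1 was at 0.107 and 0.162 TPM after BMP6, was listed at 0 in control replicate 1 and was at 0.0359 TPM in control replicate 2, which came to 11, 16, 0 and 4 rebuilt reads. The BMP6 libraries were above the controls, but these counts are too few to read a change from. Twist2 was at 0.122 and 0.0669 TPM after BMP6 and 0.0881 and 0.166 TPM in the control, with 7 to 15 rebuilt reads per library and overlapping groups. Both genes stayed below the filter and were not tested. Twist2 also shares 1484 exon bases with the antisense RNA Gm29100 of the later annotation, and without strand their reads cannot be told apart.

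Zeb1, a zinc finger and homeodomain repressor, was at 18.9 and 21.8 TPM after BMP6 and 17.5 and 18.6 TPM in the control. Both BMP6 libraries were above both controls, by 0.10 and 0.21 log2 units within the pairs. The change was 0.16 on the log2(TPM + 1) scale (SE 0.12, 95% interval -0.14 to 0.46, limma adjusted p = 1.00), and the block moved the interval to -0.04 to 0.36 with an adjusted p of 0.485 from limma. Its 8 exons had folds of 1.03 to 1.14. In the later annotation the antisense RNA Zeb1os1 shares 198 exon bases with Zeb1, and without strand their reads over these bases cannot be told apart.

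Zeb2, its paralog and a Smad-binding repressor, was at 17.3 and 18.5 TPM after BMP6 and 16.6 and 13.8 TPM in the control. Both BMP6 libraries were again above both controls, by 0.05 and 0.40 log2 units within the pairs. The change was 0.23 (SE 0.13, 95% interval -0.10 to 0.56, limma adjusted p = 1.00), and 0.409 was the limma adjusted p with the block. Among the 10645 eligible entries, 17.4% had both BMP6 libraries above both controls and 10.8% had both below, and of the 5 members tested 3 were above (Snai1, Zeb1 and Zeb2) and 0 below. At an adjusted p under 0.1 and any size of change the background was 0.272%.

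**Figure D3:**
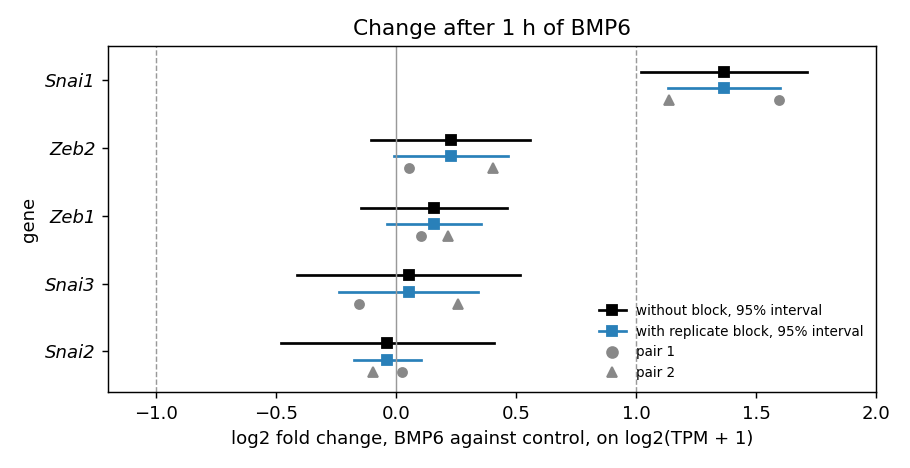
Change of the 5 tested genes between BMP6 and control, as log2 fold change on the log2(TPM + 1) scale on the horizontal axis; squares and lines are estimates with 95% intervals without (black) and with (blue) the replicate block, grey circles and triangles are pairs 1 and 2, and dashed lines mark a 2-fold change. Only the Snai1 intervals, 1.02 to 1.71 and 1.13 to 1.60, exclude 0, and both lie beyond the 2-fold line.

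Within the Zeb family Zeb1 made up 52.2% and 54.0% of the summed TPM after BMP6 and 51.3% and 57.5% in the control, so its share overlapped between groups. The summed level was 36.1 and 40.3 TPM after BMP6 and 34.1 and 32.4 TPM in the control.

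In the control the order of levels was Snai2, Snai1, Zeb1, Zeb2, Snai3, Twist2 and Twist1. The control ranges of neighbours in this order did not overlap, although Zeb1 at 17.5 to 18.6 TPM and Zeb2 at 13.8 to 16.6 TPM lay close together. After BMP6 the range of Snai1, 103 to 134 TPM, overlapped that of Snai2, 118 to 162 TPM. Among the 13128 tested entries Snai2 was number 1351 by mean TPM over the 4 libraries, Snai1 2197, Zeb1 5534, Zeb2 5936 and Snai3 8951.

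Zeb2 was the member with the most annotated transcripts, 8 in the entry at chr2:44873644-45007407 (GRCm39, minus strand). The transcripts share most exons, so their levels are estimates that divide shared reads, and the grouping by start position was made after their values were seen and was not tested. The most abundant, ENSMUST00000068415, was at 9.30 and 9.26 TPM after BMP6 and 9.55 and 7.37 TPM in the control. The 3 transcripts with the most downstream starts, between positions 45000300 and 45000745, summed to 6.08 and 7.45 TPM after BMP6 and 2.83 and 2.88 TPM in the control, 2.15-fold and 2.59-fold in the pairs. The 4 with starts at 45003104 to 45003291 summed to 9.50 and 9.26 TPM against 12.7 and 9.10 TPM, and the 1 with the start at 45007407 was at 1.25 and 1.33 TPM against 1.06 and 1.63 TPM. The downstream starts thus made up 36.1% and 41.3% of Zeb2 transcripts after BMP6 and 17.0% and 21.1% in the control. The antisense RNA Zeb2os, at chr2:45000501-45004099 in the later annotation, spans some of these starts and shares 871 exon bases with Zeb2. Its own entry was at 0.524 TPM or less.

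**Figure D4:**
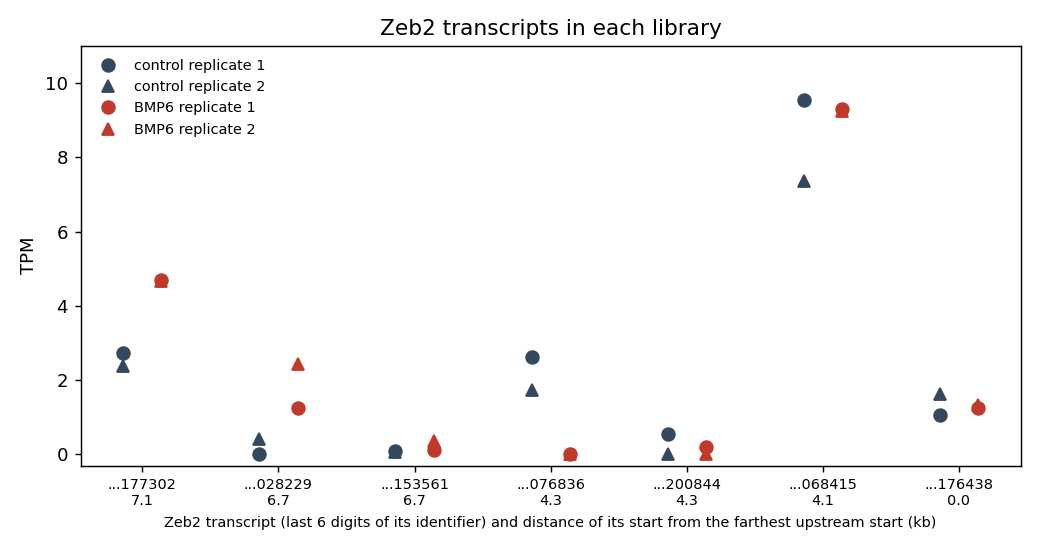
TPM of the 7 Zeb2 transcripts not listed at 0 in all libraries, ordered from the most downstream start at the left to the most upstream at the right, with the distance to that start in kb under each name; circles are replicate 1, triangles replicate 2, dark points control and red points BMP6. The red points lie above the dark ones for the first 3 transcripts at the left, and the fourth, ENSMUST00000076836, is listed at 0 in both BMP6 libraries.

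The nearest tested gene on either side of each member was examined because position was not used to choose them. None of these 14 neighbours passed the adjusted p in limma, against 0.272% of all eligible entries. Their changes ranged from -0.16 to 0.13 with a median of 0.01 on the log2(TPM + 1) scale. Rnf114, a ubiquitin ligase gene 22022 bases before Snai1, was at 63.6 and 56.6 TPM after BMP6 and 60.7 and 53.5 TPM in the control (change 0.07, SE 0.11). Gm11476, 10500 bases after Snai1, was at 3.35 to 4.33 TPM in the 4 libraries (change 0.03). The tested neighbours of the other members were each within the range given, at distances of up to 1302138 bases.

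The 5 genes whose profiles over the 4 libraries were closest to that of Snai1, by Euclidean distance of centred log2(TPM + 1) values among 6425 named genes with at least 10 TPM, were Id2, Nfkbia, Junb, Hey1 and Dusp8. Id2, at a distance of 0.115, was at 569 and 447 TPM after BMP6 and 202 and 219 TPM in the control. Nfkbia, which encodes the NF-kB inhibitor IκBα, was at 90.4 and 71.9 TPM against 34.4 and 35.6 TPM (distance 0.190). As in Snai1, replicate 1 was the higher of the BMP6 libraries and the lower of the controls in both genes. Junb, an AP-1 factor, rose by 1.39 and Hey1, a bHLH repressor of the Notch pathway, by 1.35 on the log2(TPM + 1) scale (limma adjusted p = 0.0132 and 0.0523). Dusp8, a MAP kinase phosphatase gene, was at 15.7 and 12.8 TPM against 6.65 and 6.67 TPM and did not pass (change 0.98, limma adjusted p = 0.167, with the block 0.00226). These genes were chosen for likeness over only 4 libraries.

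Among 13 relatives of the Snail and Twist genes, 3 reached 1 TPM and 1 passed the test. Atoh8, a bHLH factor, was at 49.9 and 46.3 TPM after BMP6 and 9.68 and 12.4 TPM in the control, and rose by 2.04 on the log2(TPM + 1) scale (SE 0.14, limma adjusted p = 0.0132). Msc, a bHLH repressor of myogenic factors also called musculin, was at 41.7 and 27.7 TPM after BMP6 and 59.0 and 41.8 TPM in the control (change -0.53, limma adjusted p = 1.00). Its levels were lower in both pairs, and with the block its adjusted p from limma was 0.0117. Scx, which marks tendon cells, was at 17.9 and 82.7 TPM after BMP6 and 19.3 and 67.2 TPM in the control, and its levels lay further apart between replicate numbers than between groups. The other 10 relatives were under 1 TPM in every library.

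Twist proteins pair with E proteins, and Id proteins bind E proteins and keep them from DNA. All 7 genes of this list were tested, and 3 passed both thresholds as higher, against 0.225% of all eligible entries, and none as lower. In 5 of the 7 both BMP6 libraries were above both controls, against 17.4% of eligible entries. With the block 4 passed the adjusted p in limma. The share of all eligible entries passing with the block was not worked out, so this count has no background. Id1 was at 584 and 513 TPM after BMP6 and 90.5 and 129 TPM in the control (change 2.33, limma adjusted p = 0.0164). Id3 was at 841 and 730 TPM against 127 and 158 TPM (change 2.46, limma adjusted p = 0.0104), and Id2 rose by 1.26 (limma adjusted p = 0.0511). Id4 was at 3.79 and 5.06 TPM against 0.559 and 1.07 TPM, without passing (change 1.58, limma adjusted p = 0.107, with the block 0.000331). The E protein genes Tcf3, Tcf4 and Tcf12 had changes of -0.08, 0.02 and 0.21 and did not pass. The median change of the list was 1.26, the value of Id2, against 0.02 over all tested entries. The Id genes of the list were already known to respond to BMP. Its counts and median therefore follow from the choice of members and are no separate result.

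None of 38 tested corepressor genes, which encode proteins that Snail, Twist or Zeb proteins recruit, passed the test in either direction (median change 0.03, range -0.25 to 0.36). Of all eligible entries 0.272% passed, so a count of 0 says little about this list or the stability and Smad lists that follow. The largest changes were those of Suz12, a Polycomb subunit, at 4.41 and 6.46 TPM after BMP6 and 3.27 and 4.73 TPM in the control, and of Gatad2b, a NuRD subunit, at 7.39 and 9.21 TPM against 5.39 and 7.16 TPM. Among 28 tested genes that act on Snail protein stability none passed (median 0.09). Gsk3b, a kinase that marks Snail protein for degradation, was at 48.8 and 49.0 TPM after BMP6 and 36.4 and 40.4 TPM in the control (change 0.34). Csnk2a1, a casein kinase 2 subunit, was at 39.1 and 34.3 TPM against 29.2 and 27.3 TPM (change 0.36), and with the block it passed at an adjusted p of 0.0874 from limma. Protein levels were not measured. Of the Smad genes 5 of 6 were tested and none passed (median 0.11), with Smad1 at 38.9 and 57.9 TPM after BMP6 and 38.1 and 40.4 TPM in the control, and Smad5 at 7.77 and 10.0 TPM against 7.41 and 8.57 TPM.

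Of 27 epithelial genes, the class these repressors are known to act on, 8 were tested and none passed (median change 0.10). The share of all eligible entries that passed was 0.272%, so a count of 0 says little about a list of this size. Cdh1, E-cadherin, was at 0.0147 TPM or less in every library, so a fall could not have been seen. Cldn4, a tight junction gene, was at 3.29 and 4.33 TPM after BMP6 and 0.812 and 1.78 TPM in the control (change 1.09, limma adjusted p = 0.699), and with the block its adjusted p from limma was 0.00494. Patj, a cell polarity gene, was at 18.5 and 22.9 TPM against 13.4 and 20.8 TPM. Of 24 mesenchymal genes 21 were tested and none passed (median 0.05), against the same 0.272%. Vim, vimentin, was at 375 to 414 TPM and Cdh2, N-cadherin, at 56.3 to 65.9 TPM over the 4 libraries. Plaur, the urokinase receptor gene, was at 23.5 and 32.8 TPM after BMP6 and 18.2 and 26.0 TPM in the control (change 0.34).

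None of the 26 muscle differentiation genes passed (median -0.05), against 0.272% of all eligible entries. The change was negative in 19 and positive in 7. In 8 of the 26 both BMP6 libraries were below both controls, against 10.8% of eligible entries. In 1 both were above, against 17.4%. Des, desmin, was at 952 and 807 TPM after BMP6 and 1120 and 955 TPM in the control (change -0.24). With the block 2 genes of this list passed as lower, Des among them at an adjusted p of 0.0312 from limma. The share of all entries passing at any size of change with the block was not worked out. Tnnc2, fast troponin C, was at 115 and 159 TPM against 113 and 122 TPM (change 0.21).

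Markers of other cells that the sort could hold were compared between the groups. The 11 fibro-adipogenic markers, which include collagen genes of mesenchymal cells, summed to 334 to 450 TPM after BMP6 and 375 to 445 TPM in the control, and Col1a2 was the highest at up to 240.2 TPM. Of these 11 markers 4 were under 1 TPM in every library, among them Pdgfra at 0.164 TPM or less, so the sum does not measure the share of such cells. Endothelial markers summed to 10.5 to 13.9 TPM against 9.36 to 13.1 TPM, immune markers to 1.19 to 1.89 TPM against 1.39 to 2.23 TPM, and pericyte and smooth muscle markers to 16.3 to 17.0 TPM against 14.9 to 16.3 TPM. The highest genes of these last lists were Egfl7, Cd68 and Notch3. Under 1 TPM in every library were 5 of 7 endothelial, 7 of 8 immune and 3 of 7 pericyte and smooth muscle markers. None of the tested markers of these 4 cell types passed, against 0.272% of all eligible entries. The 5 Schwann cell markers summed to 19.7 to 24.4 TPM after BMP6 and 9.24 to 10.8 TPM in the control, and nearly all of this was Ngfr, at 19.2 and 23.9 TPM against 10.4 and 8.64 TPM (change 1.09, limma adjusted p = 0.164, with the block 0.00375). The defining Schwann marker Sox10 was at 0.115 TPM or less in every library, and whether Ngfr has a part in the Snai1 result was not tested.

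**Figure D5:**
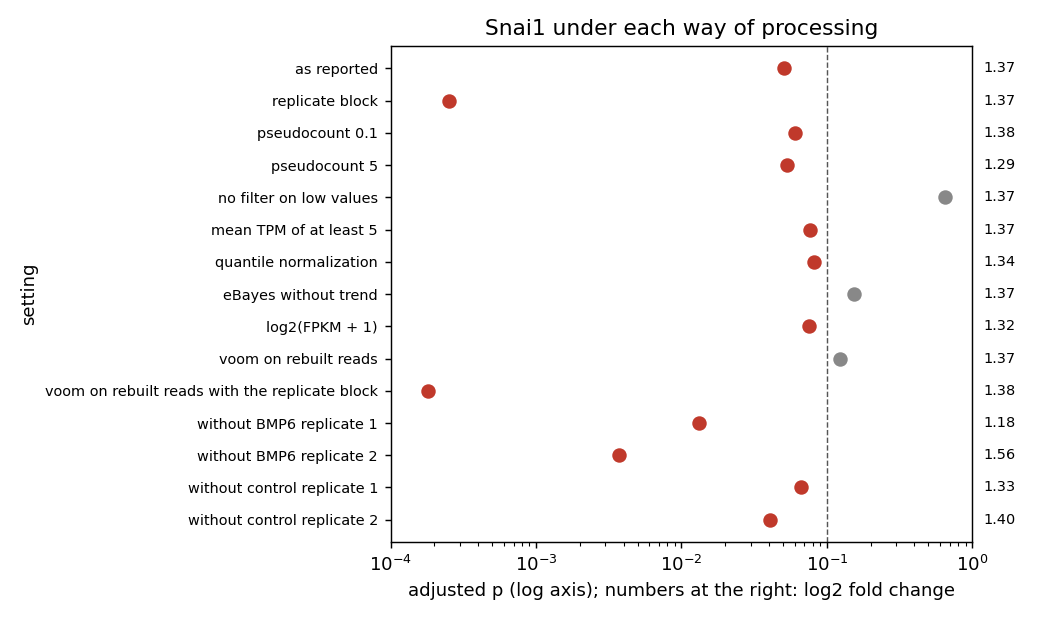
Adjusted p of Snai1 on a logarithmic horizontal axis under each way of processing, with the log2 fold change at the right and a dashed line at 0.1; red points pass and grey points do not. The fold change stays between 1.18 and 1.56, and the 3 grey points are the fit without a filter on low values, the fit without a variance trend and voom on rebuilt reads without the block.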

How the data were processed

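Poly(A) RNA of 4 libraries was sequenced as unstranded Smart-seq2 libraries with paired 100-base reads. According to the submitters' notes and the study's methods, the authors aligned reads to GRCm39 with STAR 2.7.11a and a GENCODE annotation, sorted them with SAMtools 1.17, merged assemblies with StringTie 2.2.1 and quantified each library on the merged annotation. The deposited values are TPM and FPKM per entry and coverage (signal) per gene, transcript and exon, none of them raw counts. Reads were rebuilt as coverage times transcript length over 100, and the exon depth was scaled by the ratio of TPM to coverage. Entries averaging 1 TPM or more were tested on log2(TPM + 1) with limma 3.58.1 (R 4.3.3, empirical Bayes with trend, two-sided, Benjamini-Hochberg), without a block, in place of the study's count test. The pseudocount of 1 shrinks the fold change of low genes. Entries with provisional names (2483 tested) stayed in the fit and out of the calls. A test on simulated data was run first. Same-numbered libraries were taken as pairs because the labels name the number as batch, and their deviations correlated at 0.563 across entries. Replicate spread is over 2 libraries only, and PCR reads carried no molecular identifiers, so read numbers do not count molecules. The alternatives were other pseudocounts, filters, scaling, units and tests, the block, and leaving out each library. Named genes were the 7 members, list members past the adjusted p or otherwise the 2 with the largest change, and for Snai1 its neighbours and 5 closest profiles. Genes named beyond that rule (Msc, Scx, Id4, the E protein genes, Cdh1, Vim, Cdh2, Ngfr, Acta1, Myog, Mymk and other markers) were added after their values were seen. A few genes of the lists are not reported here by name. The members, lists and motifs were chosen with earlier results of these data known. Transcripts were compared with all GENCODE M39 transcripts with BLAST 2.17.0 for shared stretches of at least 100 bases at 95% identity. The only matches were the overlapping antisense RNAs of Snai1, Twist2 and Zeb2.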

Additional observations from a re-analysis of the deposited data

How the results depend on the processing

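The change of Snai1 stayed positive under all 15 alternatives, between 1.18 and 1.56. It stood at 1.37 but missed the adjusted p without the filter on low values (0.648), without the variance trend (0.154) and with voom on rebuilt reads without the block (0.123), and at a threshold of 0.05 (0.0511). Without the filter more entries are tested. Leaving out each library gave 1.18 to 1.56 for Snai1, -0.26 to 0.19 for Snai2, -0.18 to 0.29 for Snai3, 0.06 to 0.26 for Zeb1 and 0.10 to 0.35 for Zeb2. In these fits the lone library of a group is assumed to vary like the other group. Snai2 turned to 0.19 without BMP6 replicate 2 and 0.13 without control replicate 1, and Snai3 to -0.18 without control replicate 2, none of them called. Twist1 read 1.00 with a pseudocount of 0.1 and 0.033 with 5, and Twist2 -0.22 with 0.1. The 24 genes called higher became 15 with a pseudocount of 5, 15 at a mean TPM of at least 5, 12 without the trend, 0 without the filter, 11 at a threshold of 0.05 and 17 to 30 without 1 library. The pairing of replicates as a block gave 36 higher and 1 lower in limma, and 55 and 5 with voom. In limma on TPM it changed the call of no member, while in voom on rebuilt reads Snai1 was called only with it (adjusted p = 0.000180 with the block and 0.123 without). Genes called lower, 0 as reported, were 1 to 7 without 1 library. Other named genes, 22 in all, kept direction and call in 299 of their comparisons, lost the call in 15, gained it in 4 and changed direction in 9 (Gm11476 at -0.00064 after quantile normalization, and others without 1 library, where Gm11476 ranged from -0.122 to 0.172, Patj from -0.0101 to 0.590, Rnf114 from -0.0160 to 0.163, Smad1 from -0.0127 to 0.549, Smad5 from -0.0333 to 0.300 and Tnnc2 from -0.0254 to 0.443). The cause was not tested. The median change of all entries lay between -0.0063 and 0.0304 over these fits.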
